A study of Mus musculus with 32 samples.

Results

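The genes described here are 9 transcripts of B lymphocytes and antibody-secreting plasma cells, measured in dissected mouse brain arteries: Igkc, Jchain, Ighm, Igha, Ighg2b, Cd79a, Cd79b, Ms4a1 and Mzb1. They were selected on measured values, because Igkc was higher in control arteries at 12 months than at 3 months, and they are 9 of the 55357 genes in the table, matched to it by Ensembl identifier. Bulk poly(A) RNA-seq was done on 32 mice in 4 groups of 8. At 3 months, Notch3-/- mice, which lack a working Notch3 receptor, were set beside Notch3+/+ mice. At 12 months, TgNotch3R169C mice, a model of the inherited small vessel disease CADASIL that overexpresses a mutant rat Notch3 from an artificial chromosome on top of the mouse gene, were set beside non-transgenic wild-type (WT) mice. Controls were age-matched littermates, no group was treated, both lines had been backcrossed to C57BL/6, and the transgene sits on the X chromosome. Age and line differ together, so that a difference between a 3-month and a 12-month group cannot be assigned to either.

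A B cell carries its antibody on the membrane together with the signalling chains encoded by Cd79a and Cd79b, and displays CD20, the product of Ms4a1. When it matures into a plasma cell it stops displaying most of these proteins and turns to secretion: the light chain (Igkc for kappa) and heavy chain (Ighm for IgM, Igha for IgA, Ighg2b for IgG2b) are transcribed at very high rates, Jchain encodes the small protein that joins IgM or IgA into polymers, and Mzb1 encodes a chaperone of antibody assembly. Antibody-secreting cells are known residents of the meninges, the membranes through which the surface arteries of the brain run. In whole-tissue RNA, fewer cells of a type and less RNA per cell cannot be told apart. The arteries came from decapitated animals and no flushing of blood is described for them, and RNA of blood cells was present in each library.

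Each antibody is assembled from a variable (V) segment joined to a constant region, and the segment used differs from one B cell clone to the next. The germline ends of the V segments with the most reads in each group are shown here because most of these reads came from 1 or 2 mice. Those on Igkv4-55, described after the members, were found in 8 of 8 TgNotch3R169C mice, though most came from 1 of them. Lower case gives framework bases up to the conserved cysteine codon and capitals give the germline part of the third complementarity-determining region, the loop where a segment joins its partner. All are from GENCODE vM21 on GRCm38, whereas the reads were counted on mm39. The heavy-chain segments lie on the minus strand of chromosome 12, at chr12:114914599-114914658 for Ighv1-39, chr12:114513330-114513389 for Ighv1-5 and chr12:114583569-114583628 for Ighv1-9. The kappa segments lie on the minus strand of chromosome 6, at chr6:69544359-69544418 for Igkv4-57-1, chr6:68768555-68768614 for Igkv4-91, chr6:69607275-69607334 for Igkv4-55 and chr6:69764523-69764582 for Igkv12-46.
Ighv1-39: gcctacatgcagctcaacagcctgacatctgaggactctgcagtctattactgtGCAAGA
Ighv1-5: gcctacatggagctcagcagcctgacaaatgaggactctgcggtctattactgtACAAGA
Ighv1-9: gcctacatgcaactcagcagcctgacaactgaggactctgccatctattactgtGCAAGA
Igkv4-57-1: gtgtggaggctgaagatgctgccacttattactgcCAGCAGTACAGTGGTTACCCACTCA
Igkv4-91: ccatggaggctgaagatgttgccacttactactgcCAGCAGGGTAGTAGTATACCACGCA
Igkv4-55: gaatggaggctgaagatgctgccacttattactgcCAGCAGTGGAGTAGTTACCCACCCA
Igkv12-46: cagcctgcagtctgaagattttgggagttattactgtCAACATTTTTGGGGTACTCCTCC
The 3 Ighv1 segments contribute 6 bases after the cysteine codon, and the kappa segments 23 or 25.

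Libraries held between 20289487 and 54481934 counted reads. The targeted gene followed the labels: Notch3 stood at 16.3 ± 1.82 CPM (reads scaled to a common library total, SD, n = 8) in Notch3-/- mice against 83.5 ± 11.7 in Notch3+/+ mice, and at 181 ± 35.0 in TgNotch3R169C mice against 73.0 ± 8.16 in their WT controls. Each group had 4 mice with high and 4 with low Xist, a transcript of female cells. Choroid plexus genes differed widely, their summed level running from 226 to 25851 CPM over the 32 mice, and smooth muscle genes were lower in Notch3-/- mice, where 5 of 8 were called.

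The secreted-antibody genes had higher levels in the 12-month than in the 3-month groups, while the membrane genes of B cells were at similar levels throughout. Igkc ran from 1.59 to 13.4 CPM with a median of 2.75 in Notch3+/+ mice at 3 months, and from 0.565 to 7.27 with a median of 4.51 in Notch3-/- mice. At 12 months it ran from 9.19 to 237 CPM with a median of 26.7 in WT mice, and from 11.1 to 350 with a median of 53.7 in TgNotch3R169C mice. Every 12-month mouse was above every Notch3-/- mouse, and only the lowest WT mouse at 12 months and the 2 lowest TgNotch3R169C mice fell within the range of the Notch3+/+ group. Igkc was selected as higher in the older controls, and how many of all genes separate these groups was not counted. The order of the groups by mean was TgNotch3R169C, WT at 12 months, Notch3+/+ and Notch3-/-, and within each age the 2 groups did not differ beyond their spread.

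Jchain followed the same order of ages at lower levels. Its median was 0.791 CPM (0.513 to 1.86) in Notch3+/+ mice and 0.965 (0.496 to 1.57) in Notch3-/- mice. The medians at 12 months were 4.09 CPM (1.28 to 22.4) in WT mice and 8.58 (1.83 to 30.9) in TgNotch3R169C mice. TgNotch3R169C and Notch3-/- mice did not overlap for this gene or for Igkc, but how many of all genes separate these groups was not counted. Ighm, the IgM heavy chain, already had a median of 29.8 CPM (19.2 to 60.2) in Notch3+/+ mice and of 31.8 (17.5 to 58.7) in Notch3-/- mice. It reached a median of 56.0 CPM (30.8 to 325) in WT mice and 92.4 (35.4 to 500) in TgNotch3R169C mice at 12 months. Here the ages overlapped, with 4 of 8 WT and 5 of 8 TgNotch3R169C mice above every 3-month mouse of the Notch3+/+ group.

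The class-switched heavy chains, made after a B cell exchanges IgM for another class, were scarce at 3 months. Igha had a median of 0.194 CPM (0.0345 to 2.06) in Notch3+/+ mice and 0.725 (0.111 to 4.87) in Notch3-/- mice, against 4.32 (0.984 to 8.86) in WT and 4.98 (1.19 to 21.2) in TgNotch3R169C mice. Ighg2b was at 0 reads in 3 Notch3+/+ and 5 Notch3-/- mice, and the whole Notch3-/- group held 5 of its reads. At 12 months all 16 mice had at least 1 Ighg2b read, with a median of 0.796 CPM (0.0757 to 7.92) in WT and 1.51 (0.0290 to 14.9) in TgNotch3R169C mice. The groups overlapped for both genes, and 2 TgNotch3R169C mice held a single Ighg2b read each.

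Cd79a, Cd79b and Ms4a1 gave a different picture. Cd79a had nearly the same mean in each group, from 3.40 ± 0.555 CPM in TgNotch3R169C mice to 3.65 ± 0.390 in WT mice at 12 months, and its coefficient of variation within groups was 0.107 to 0.163. Cd79b averaged 1.25 ± 0.540 CPM in Notch3+/+, 1.43 ± 0.506 in Notch3-/-, 1.59 ± 0.619 in TgNotch3R169C and 1.32 ± 0.433 in WT mice at 12 months. Ms4a1 averaged between 0.904 ± 0.301 CPM in Notch3-/- mice and 1.03 ± 0.689 in TgNotch3R169C mice. All groups overlapped for these 3 genes. Mzb1 was near the detection limit, with 2 to 17 reads in a mouse and group medians of 0.184, 0.0851, 0.234 and 0.229 CPM in the order Notch3+/+, Notch3-/-, TgNotch3R169C and WT at 12 months.

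**Figure D1:**
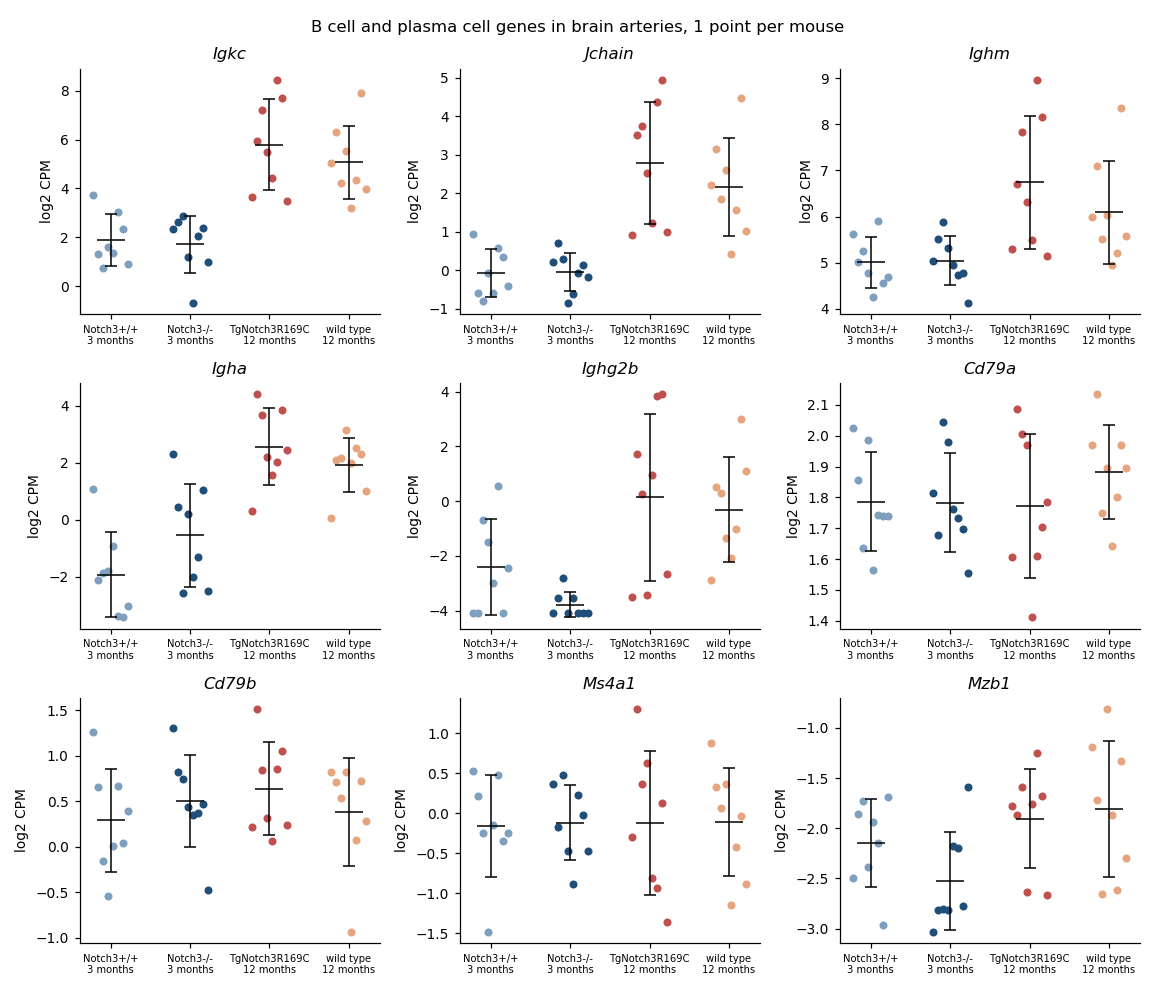
Level of each gene in every mouse (points, log2 CPM with a prior count of 2, n = 8 per group) with the group mean and SD (bars); the y axes differ between panels. Igkc and Jchain of all 8 TgNotch3R169C mice lie above all 8 Notch3-/- mice, while Cd79a keeps within a narrow band. How many of all genes separate these groups was not counted.

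Scaled to length, the relation between the light and the heavy chain turned over. Per kilobase of annotated exon, Ighm stood at 18.3 ± 7.42 CPM and Igkc at 8.91 ± 7.74 in Notch3+/+ mice, against 87.4 ± 87.1 and 201 ± 226 in TgNotch3R169C mice. In read numbers, each Igkc read was accompanied by 3.66 to 23.9 Ighm reads in Notch3+/+ and 5.31 to 54.6 in Notch3-/- mice, but by 1.37 to 3.35 in WT and 1.39 to 3.18 in TgNotch3R169C mice at 12 months. The 3-month and 12-month ranges did not meet, but the ratio has in its denominator the gene selected as higher in the older controls, so that their separation is no finding. On GRCm38 a noncoding gene overlaps Igkc on its own strand, another gene overlaps Mzb1 on its own strand, and an antisense gene overlaps Ms4a1. Whether the counting used strand is not given in the sources used here, so that reads of such pairs may have been dropped or shared.

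The first comparison, Notch3-/- against Notch3+/+ at 3 months, asked what loss of the receptor does. None of the 6 members that could be tested was called by edgeR's quasi-likelihood test, where 0.649% of all 17714 genes were. None reached an unadjusted p under 0.05, and DESeq2 and limma voom called 0 as well. The log2 difference was -0.24 ± 0.495 (SE, 95% interval -1.29 to 0.80, adjusted p = 0.974) for Igkc. For Cd79a it was -0.01 ± 0.0931 (-0.21 to 0.19, adjusted p = 0.997), with an upper bound of 1.14-fold. The 3 low members Igha, Ighg2b and Mzb1 failed the filter on low counts. Without that filter Ighg2b, with 5 reads in Notch3-/- and 113 in Notch3+/+ mice, differed by -3.91 ± 1.09 (adjusted p = 0.252), and 77 of the 113 reads came from Notch3+/+ mouse 6. Without Notch3+/+ mouse 1, the highest of its group, the Igkc difference turned to 0.19.

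At 12 months, TgNotch3R169C mice had higher means than WT mice for each of the 5 antibody genes tested, but none of the 8 members tested was called, against 0.113% of 17731 genes. Again no member had an unadjusted p under 0.05, and DESeq2 and limma voom called 0. The log2 difference was 0.90 ± 0.779 for Igkc (-0.74 to 2.55, adjusted p = 0.803), and the other 4 lay between 0.79 for Jchain and 1.46 for Ighg2b. The 95% intervals of the 5 genes included 0 and reached from 3.99-fold for Igha to 13.0-fold for Ighg2b at their upper end. Single mice weighed heavily: mouse 6 held 41.0% of the summed Igkc CPM of the TgNotch3R169C group and mouse 7 held 51.6% of that of the WT group. Without TgNotch3R169C mouse 6 the Igkc difference was 0.33, and without WT mouse 7 it was 1.75. With the choroid plexus genes, whose summed median was 312 CPM in TgNotch3R169C and 4772 in WT mice, as a covariate it was 0.21, and their part in the difference was not tested further. Cd79a (-0.10 ± 0.107), Cd79b (0.27 ± 0.260) and Ms4a1 (0.10 ± 0.385) were not called either. The WT group of this contrast is one of those whose Igkc levels chose the genes.

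The age contrast behind the choice of these genes was between the 2 control groups, and it is given without a test. In WT at 12 months over Notch3+/+ at 3 months, the fitted log2 difference was 3.59 for Igkc, 3.44 for Igha, 2.71 for Jchain and 1.45 for Ighm, against 0.10 for Cd79a and 0.08 for both Cd79b and Ms4a1. The median over all genes tested was 0.00. Marker lists of other cell types had median log2 differences of 4.29 for choroid plexus, 1.04 for neutrophils, 0.51 for T cells and -0.88 for smooth muscle in this contrast, and their part in the members' values was not tested. Without WT mouse 7 the Igkc difference was 2.75, and without Notch3+/+ mouse 1 it was 4.02.

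The mutant mice, which the choice did not use, differ in age as well as genotype: TgNotch3R169C at 12 months against Notch3-/- at 3 months. This contrast sets the same ages and lines against each other as that of the controls, their littermates, which chose the genes. The members were also chosen with earlier results of these data known. Higher values in the older mutant mice are therefore not independent of the choice. Here 3 of the 7 members tested were called, all higher in the older mice, against 3.82% of 17865 genes in either direction. Igkc was 26.7-fold higher (log2 4.74 ± 0.765, 95% interval 3.12 to 6.36, adjusted p = 0.00235), Jchain 11.5-fold (3.52 ± 0.582, adjusted p = 0.00278) and Ighm 4.76-fold (2.25 ± 0.521, adjusted p = 0.0235). By size of the increase Igkc ranked 3 and Jchain 8 among all genes tested. In an exact two-sided permutation test of each gene alone, n = 8 against 8, Igkc and Jchain gave p = 0.0001554, the smallest these group sizes allow, and Ighm gave 0.00591. The 3 calls held when any 1 mouse was left out. In the edgeR fit with the replicate number as a block, Igkc and Jchain were called and Ighm was not (log2 1.66, adjusted p = 0.0767). With limma voom only Jchain (adjusted p = 0.0463) of the 3 was still called, Igkc having 0.0653 and Ighm 0.0846.

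Igha missed the threshold narrowly in that comparison, with a log2 difference of 2.73 ± 0.742 (adjusted p = 0.0504, edgeR's quasi-likelihood test). Having failed the low-count filter between the 3-month groups, it entered this contrast through the TgNotch3R169C mice, where it was high. It was called by DESeq2 (adjusted p = 0.00837) and by limma voom (0.0445), and in 4 of the 16 fits with 1 mouse left out. Ighg2b failed the low-count filter here. Without the filter its log2 difference was 7.67 ± 1.36 (adjusted p = 0.00587). Its size rests on 5 reads in the younger group and 1313 in the older, of which 1090 came from TgNotch3R169C mice 6 and 7. Cd79a (0.01 ± 0.106), Cd79b (0.16 ± 0.248) and Ms4a1 (0.20 ± 0.349) were not called, and the 95% interval of Cd79a, -0.21 to 0.24, has an upper bound of 1.18-fold.

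**Figure D2:**
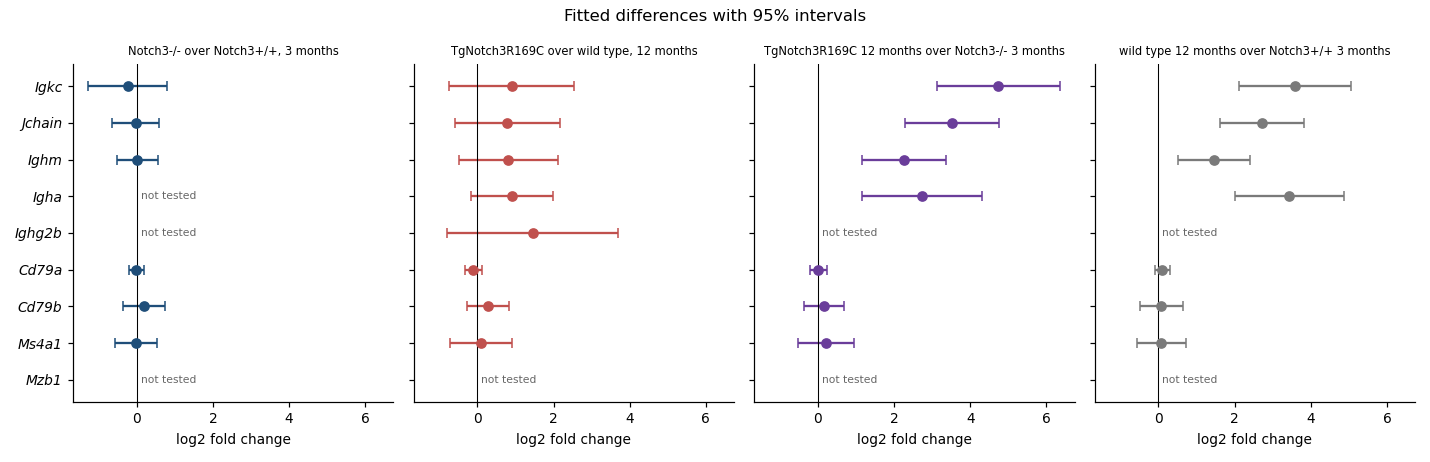
Fitted log2 fold change of each gene (points) with its 95% interval (bars) in the 4 comparisons; genes under the low-count filter are marked as not tested. In TgNotch3R169C over Notch3-/- mice the intervals of Igkc, Jchain, Ighm and Igha lie to the right of 0 and those of Cd79a, Cd79b and Ms4a1 include it. Igha was not called there, and it passed the low-count filter through the TgNotch3R169C mice, where it was high. The contrast of the controls chose the genes, and its intervals are no test.

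Whether the mutant effects differed from each other was tested as (TgNotch3R169C minus WT) minus (Notch3-/- minus Notch3+/+). Among 8 members tested none was called, against 0.35% of 18555 genes, and DESeq2 and limma voom called 0. Only Ighg2b had an unadjusted p under 0.05, with a log2 difference of 5.38 ± 1.85 and an adjusted p of 0.333. For Igkc the value was 1.15 ± 0.973 (-0.84 to 3.13).

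From mouse to mouse, Igkc, Jchain and Ighm varied together. After removal of the group means, Igkc and Jchain had a Pearson r of 0.93 and a Spearman rho of 0.94 over the 32 mice, both with a permutation p of 1e-05, the smallest that 100000 permutations within groups can give. The r was 0.91 without the 2 mice farthest from the median of Igkc, and 0.97, 0.78, 0.96 and 0.99 within Notch3+/+, Notch3-/-, TgNotch3R169C and WT mice at 12 months. Igkc and Ighm gave r = 0.86 and rho = 0.81 (r = 0.81 without the 2 farthest mice), with r of 0.99 and 0.97 in the 12-month groups but 0.59 and 0.42 at 3 months. Of the 36 pairs of members, 13 passed 0.05 by r after Benjamini-Hochberg adjustment over the pairs, and 14 by rho.

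Among the membrane genes, Cd79b and Ms4a1 correlated at r = 0.72 and rho = 0.72, and at r = 0.71 without the 2 mice farthest from the median of Cd79b. Cd79b was also tied to Igkc, at r = 0.62 (rho = 0.68, adjusted permutation p of r = 0.00198, r = 0.65 without the 2 farthest mice), so that mice with more antibody RNA tended to have more Cd79b RNA as well. Cd79a correlated with Cd79b (r = 0.52, rho = 0.53, adjusted permutation p of r = 0.0152) and with Ms4a1 (r = 0.47, rho = 0.52, 0.0426, but 0.0524 with RLE normalisation and 0.0515 with a prior count of 0.5), but its r with Igkc was 0.36 (rho = 0.42, 0.130). Without the 2 mice farthest from the median of Cd79a the r with Cd79b was 0.43 and that with Ms4a1 0.35. Ms4a1 went with Igkc by rho (0.53, adjusted permutation p = 0.0195) and not by r (0.46, 0.0543), which was 0.65 without the 2 farthest mice. Igha followed Igkc less closely: its r with Igkc was 0.37 (adjusted permutation p = 0.0872), and the mouse with the most Igha in the WT group at 12 months was mouse 4, not mouse 7. Group means were removed for these correlations, but differences by Xist were not. In every group the medians of Cd79a, Cd79b and Ms4a1 were lower in the high-Xist mice. For Ms4a1 they were 0.488 against 1.36 CPM in TgNotch3R169C and 0.583 against 1.22 in WT mice at 12 months. The part of sex in these correlations was not tested.

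**Figure D3:**
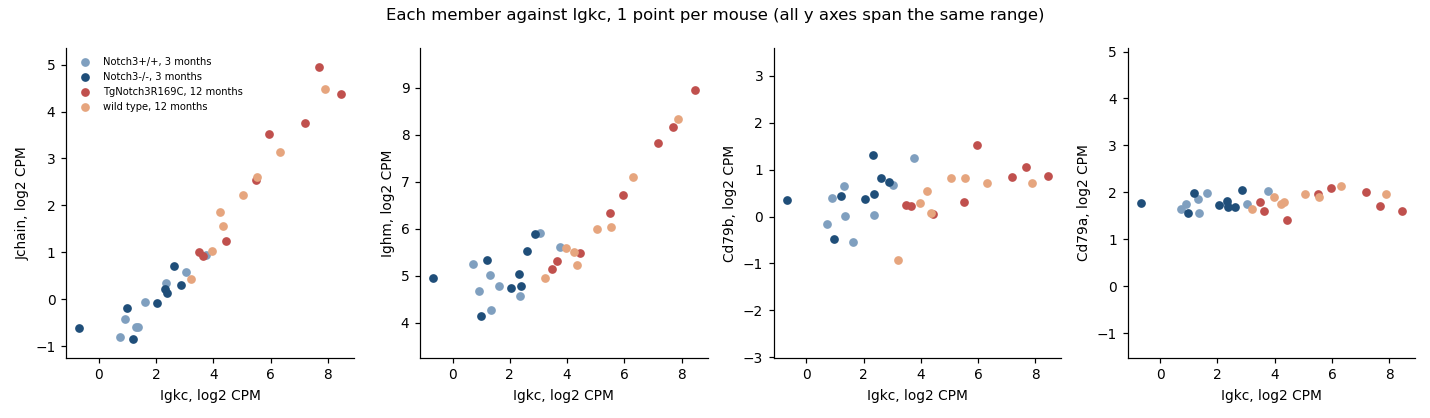
Jchain, Ighm, Cd79b and Cd79a (log2 CPM, y axes of equal span) against Igkc in the 32 mice, coloured by group. Jchain follows Igkc over the whole range, Ighm follows it in the 12-month mice, and Cd79a stays level.

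Among 18555 genes, Jchain and Ighm were the most and second most like Igkc in their variation among mice. Outside the antibody loci and the members, the 5 genes most like it were Prg2 (r = 0.71), Slc10a4 (0.61), Skap1 (0.60), Gimap6 (0.58) and Rhoh (0.57). Prg2 encodes a granule protein of eosinophils, and its mean level was 0.108 CPM in Notch3+/+, 0.0884 in Notch3-/-, 0.590 in TgNotch3R169C and 0.767 in WT mice at 12 months. Skap1, Gimap6 and Rhoh are expressed in lymphocytes. In the same order of groups the means were 0.607, 0.678, 0.909 and 0.950 CPM for Skap1 and 2.66, 2.64, 2.57 and 2.70 for Rhoh. For Gimap6 they were 14.5, 14.8, 11.6 and 10.9 CPM, lower in the 12-month groups, where Igkc was higher. The genes most like Cd79a were others: Rpa3 (r = 0.73), B2m (0.71), Slc16a3 (0.71), Napsa (0.70) and Mbnl1 (0.68). Among the members, Cd79b ranked 352, Ms4a1 646 and Igkc 1948 in likeness to Cd79a. These correlations are a description over mice that share their libraries' depth and composition.

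No marker list of another cell type had a correlation with Igkc that passed adjustment. Over 14 lists, the mean log2 CPM of a list had r with Igkc between -0.31 for choroid plexus and 0.34 for T cells (smallest adjusted permutation p = 0.550 for r and 0.273 for rho). Without the 2 mice farthest from the median of Igkc, r ran from -0.22 for choroid plexus to 0.47 for NK cells. It was then 0.45 for T cells, 0.39 for neutrophils and 0.36 for red blood cells, but 0.10 for border macrophages. These values were not tested. T cell genes summed to medians of 15.1, 17.8, 21.7 and 19.6 CPM in Notch3+/+, Notch3-/-, TgNotch3R169C and WT mice at 12 months. Red blood cell genes summed to medians of 1278, 1450, 1175 and 1068 CPM. In the contrast of TgNotch3R169C with Notch3-/- mice, Igkc was higher by a log2 of 4.999 with the red blood cell list as a covariate, 5.003 with the meningeal fibroblast list, 5.14 with the choroid plexus list and 4.63 with Xist, and it was called each time. None of these covariates measures white blood cells or the plasma cells of the meninges, so that the fits cannot decide where the antibody RNA came from. The part of blood or meningeal cells in the antibody signal was not tested.

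The wider set of B lineage genes was then examined in 6 lists, of which 2 of 46 genes tested were called in TgNotch3R169C against Notch3-/- mice, a share near the 3.82% of all genes. In this contrast 1 of 14 surface and signalling genes tested was called, Cd22, an inhibitory receptor of B cells also found on microglia (log2 0.80 ± 0.210, adjusted p = 0.0444). Of the ligands that attract B cells or keep them alive, 1 of 6 was called: Cxcl13, which encodes the chemokine that draws B cells into follicles. Cxcl13 ran from 0.127 to 1.26 CPM in Notch3-/- mice and from 2.60 to 6.79 in TgNotch3R169C mice. Its log2 difference was 3.14 ± 0.384, with an adjusted p of 0.000211 by edgeR's quasi-likelihood test. Cxcl13 failed the low-count filter between the 3-month groups and so entered this contrast through the TgNotch3R169C mice, where it was high. Its mean was 0.584 ± 0.818 CPM in Notch3+/+ and 5.27 ± 5.13 in WT mice at 12 months, and between the 12-month groups it was not called (-0.42 ± 0.382, adjusted p = 0.811).

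In the same contrast none of the 10 B lineage transcription factors, 12 plasma cell genes, 2 precursor genes and 2 other immunoglobulin constant genes tested was called by edgeR's quasi-likelihood test, while 3, 4, 0 and 1 of them, and 3459 of all 17865 genes, had an unadjusted p under 0.05. The median log2 difference was 0.17 for the factors and 0.05 for the plasma cell genes, beside 0.00 for all genes. For the 7 members tested it was 2.25. These include Igha, which entered the contrast through the TgNotch3R169C mice, where it was high, so that the filter raised this median. The most abundant genes of these lists have wide expression outside B cells. Among the factors these were Xbp1 (199 ± 20.1 CPM in Notch3-/-, 224 ± 30.8 in TgNotch3R169C mice), Ebf1 and Irf8. Among the plasma cell genes they were Txndc5 (251 ± 12.4 against 248 ± 21.3 CPM), Edem1 and Creld2, which serve protein folding in any secreting cell. In Notch3-/- against Notch3+/+ and in TgNotch3R169C against WT mice, 0 of the 43 and 50 genes tested of the 6 lists were called by edgeR's quasi-likelihood test, beside 0.649% and 0.113% of all genes, shares at which no call would be likely in lists of this size.

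Ighd, the IgD heavy chain that mature B cells carry beside IgM, averaged 1.14 ± 0.447 CPM in Notch3-/- and 1.05 ± 0.426 in TgNotch3R169C mice. The most abundant members of the remaining lists were Ralgps2, Ly86 and Cd37 on the surface list, Il7r, Vpreb1 and Rag1 among precursor genes, Cxcl12, Tnfsf13 and Ccl19 among ligands, and Ighg2c, Ighd and Iglc1 among other constant genes. The last, a lambda light chain, averaged 0.277 ± 0.202 CPM in Notch3-/- and 1.91 ± 2.79 in TgNotch3R169C mice (log2 2.76 ± 0.781, adjusted p = 0.0598). Iglc1 was the other constant gene with an unadjusted p under 0.05 in this contrast. Having failed the low-count filter between the 3-month groups, it entered through the TgNotch3R169C mice, where it was high.

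The make-up of the antibody RNA is given as a description, with no test. IgM made up most of the heavy-chain constant reads everywhere, with medians of 94.99% (87.1 to 97.4) in Notch3+/+, 93.9% (82.7 to 97.5) in Notch3-/-, 90.8% (75.5 to 95.9) in TgNotch3R169C and 85.3% (83.2 to 95.3) in WT mice at 12 months. Class-switched chains, IgG and IgA together, had medians of 2.69% (0.284 to 9.70), 2.85% (0.416 to 12.5), 8.26% (3.18 to 23.4) and 12.5% (4.23 to 15.1) in the same order. The groups overlapped in these shares. In numbers, the switched reads of a mouse had medians of 28.5 and 33.5 at 3 months and of 325 and 259 at 12 months. No Ighe read was counted in any mouse. Because the reads carry no molecular identifiers, such shares have at least the error of counting.

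Which class was present differed from mouse to mouse. In TgNotch3R169C mouse 2, 23.4% of heavy-chain reads were switched and most of these were Igha. In TgNotch3R169C mouse 7 the share was 15.8%, of which IgG took 11.6 and IgA 4.25 percentage points. TgNotch3R169C mouse 6, with the most Igkc of all, had a switched share of only 3.92% and 95.9% IgM. WT mouse 1 at 12 months had 10.97% IgG and 1.31% IgA, whereas WT mouse 6 had 2.32% and 12.8%. IgG subclasses are similar in sequence, and the split among them depends on how reads that fit several genes were handled.

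**Figure D4:**
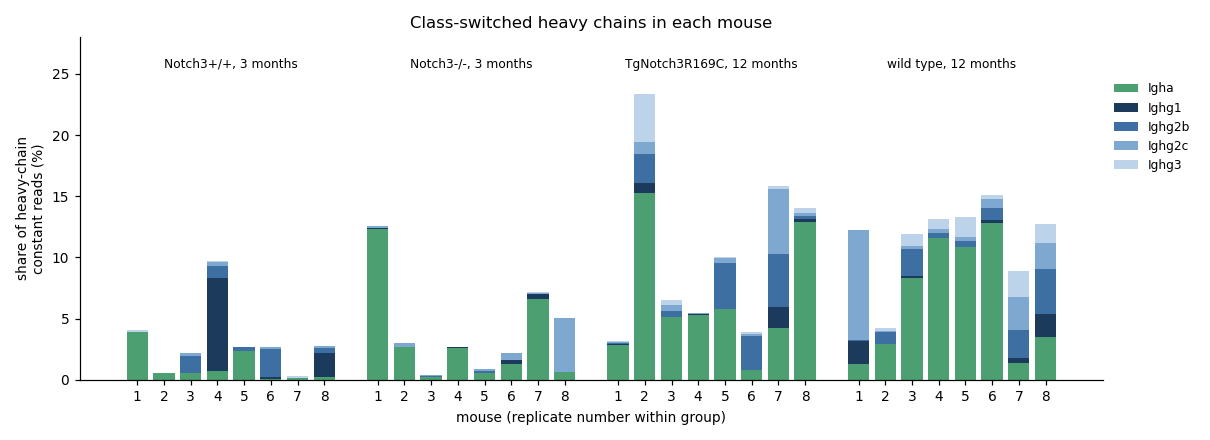
Share of heavy-chain constant reads (percent, stacked bars from 0) on Igha and the 4 IgG genes in each mouse; the rest is Ighm and Ighd. The 12-month mice reach 23.4%, and IgA and IgG dominate in different mice.

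The share of lambda among light-chain reads has Igkc, the gene selected as higher in the older controls, in its denominator, so that a lower share there follows from the choice. The medians were 12.3% (6.19 to 27.5) in Notch3+/+, 13.6% (7.55 to 50) in Notch3-/-, 2.63% (1.18 to 9.05) in TgNotch3R169C and 3.31% (1.46 to 10.03) in WT mice at 12 months. The highest share, 50%, rests on 42 light-chain reads, all that Notch3-/- mouse 5 had. The groups of the 2 ages overlapped. In level, the mean of Iglc1 was 0.237 CPM in Notch3+/+ and 0.587 in WT mice at 12 months.

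Reads on V segments scaled with the constant regions. A mouse had a median of 47 V reads on 19.5 segments in the Notch3+/+ group, 84.5 on 28 in Notch3-/-, 861.5 on 58.5 in TgNotch3R169C and 405 on 56 in WT mice at 12 months. The table holds 185 heavy-chain, 160 kappa and 3 lambda V segments, of which 105, 95 and 3 had a read in some mouse. More reads find more segments, so that the number of segments at unequal depth is not a measure of diversity. It did not simply follow depth, however: TgNotch3R169C mouse 6 had 6411 V reads on 67 segments, and TgNotch3R169C mouse 2 had 1207 reads on 109.

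**Figure D5:**
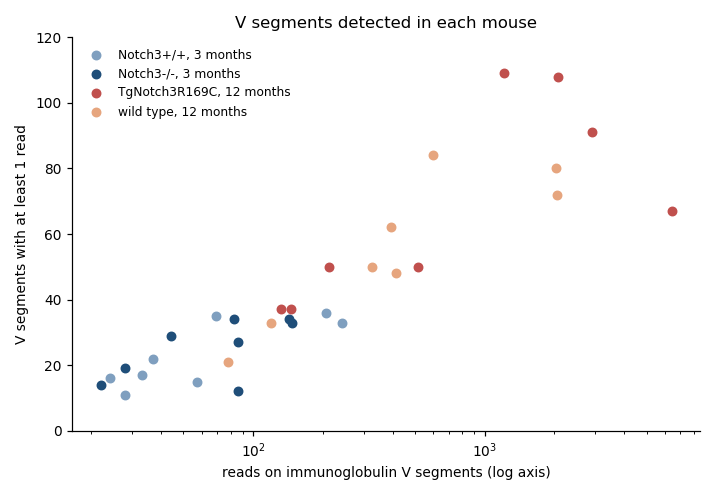
Number of V segments with at least 1 read against all reads on V segments (log axis) in each of the 32 mice. The mouse with the most V reads, TgNotch3R169C mouse 6 with 6411, has 67 segments, fewer than the 109 of a mouse with 1207.

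The leading segments were mostly those of 1 mouse. Ighv1-5 led the heavy chains of the TgNotch3R169C group with 481 reads, 466 of them from mouse 6. Ighv1-9 led in WT mice at 12 months with 376 reads, 351 of them from mouse 2, and Igkv12-46 led the kappa segments there with 519, of which mouse 2 held 484. At 3 months Ighv1-39 led both groups with 42 and 30 reads, Igkv4-57-1 led in Notch3+/+ mice with 98 of 100 reads in mouse 6, and the 68 reads of Igkv4-91 were all from Notch3-/- mouse 3. Igkv4-55 had 1957 reads in TgNotch3R169C mice and reads in 8 of 8 of them. Of the 1957, mouse 6 held 1062 and mouse 3 held 366. The leading kappa segment of mouse 6 itself was Igkv5-39 with 1713. Lambda reads fell mainly on Iglv1, which led in Notch3+/+, TgNotch3R169C and WT mice at 12 months, and on Iglv3, which led in Notch3-/- mice. The printed ends show how alike segments of a family are, and reads that match several segments equally may have been left uncounted.

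Within single libraries the leading segment could take much of its family. In Notch3-/- mouse 6, Ighv1-39 took 87.5% of 32 heavy-chain V reads and Igkv15-103 took 88.5% of 52 kappa V reads. In WT mouse 2 at 12 months, where reads were plentiful, Ighv1-9 took 56.5% of 621 heavy-chain V reads and Igkv12-46 34.7% of 1395 kappa reads. TgNotch3R169C mouse 2 had no such leader, with Ighv1-26 at 17.1% of 397 and Igkv12-46 at 13.3% of 760.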

How the data were processed

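Poly(A) RNA of brain arteries from 32 mice was sequenced with a stranded kit. The deposited values are raw read counts per Ensembl gene, 1 column per library, made by the authors on mm39. The submitters' processing notes name bcl2fastq 2.20.0.422, cutadapt 1.10, Bowtie2 2.2.8, STAR 2.5.3a and HTSeq 0.6.1p1. The annotation release and the strand setting are not given in the sources used here. Symbols were given to 52081 of 55357 identifiers.

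Groups came from the labels, and no 2 libraries of the same group differed by as little as sampling noise. Libraries of different groups were not compared in this way. The members and all gene lists were chosen with earlier results of these data known. The genes named were the 9 members, in each of 6 further B lineage lists the 3 most abundant and every gene called, the 5 genes nearest to Igkc and to Cd79a, and the V segments leading a group. V segments leading in single mice were named after their values were seen. Counts were filtered (filterByExpr), TMM-normalised and tested with edgeR 4.0.16 (glmQLFit, glmQLFTest, R 4.3.3) on the 2 groups compared, with Benjamini-Hochberg adjustment over all genes tested and a threshold of 0.05. The difference between mutant effects used all 4 groups. CPM are TMM-scaled, and log2 CPM have a prior count of 2. The exact tests used log2(CPM + 0.1). DESeq2 1.42.0, limma 3.58.1 (voom), other normalisation, other filters, covariates and each mouse left out were alternatives. Littermates are not identified, so that p-values measure spread between these mice. In counts simulated for TgNotch3R169C against Notch3-/- mice over 17726 genes, 95.8% of genes changed by a log2 of 2 and 77.3% of those changed by 1 were recovered, with 5.14% false calls. Depth ran from 20289487 to 54481934 reads, and the precision of low genes is set by counting. Exon lengths, V segment ends and overlaps came from GENCODE vM21 (GRCm38).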

Additional observations from a re-analysis of the deposited data

Results flagged for a closer look

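Of 36 sets of 8 mice, 1 per gene and group, 3 held a mouse far from the others by Dixon's criterion (gap over range above 0.526, on log2 CPM with a prior count of 2, not on the CPM given here), where chance gives about 1 in 20, or 1.8. Ighg2b in Notch3-/- mice was highest in mouse 3, with 3 reads or 0.0835 CPM against 0.0275 in the next mouse (gap 0.566 of the range of log2 CPM). Cd79b in WT mice at 12 months was lowest in mouse 5, at 0.463 CPM against 0.996 in the next (0.576). Ms4a1 in Notch3+/+ mice was lowest in mouse 4, at 0.298 CPM against 0.725 in the next (0.563).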

How the results depend on the processing

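In TgNotch3R169C against Notch3-/- mice the number of members called was 3 by edgeR's quasi-likelihood test, and 5 both by DESeq2 and with all 4 groups in one fit. The added calls were Igha, which entered the main fit through the TgNotch3R169C mice, where it was high, and a member that failed the low-count filter there. The higher count is therefore no further support. The number of genes called was 1748 by DESeq2, 397 with the red blood cell and 295 with the meningeal fibroblast list as a covariate, against 682. In Notch3-/- against Notch3+/+ mice DESeq2 called 280 genes and the fit of all 4 groups 174, against 115. In TgNotch3R169C against WT mice the count was 74 by DESeq2, 6 with the replicate block and 11 with the choroid plexus covariate, against 20, and DESeq2 called 153 genes for the difference between the mutant effects, against 65. The cause of these shifts was not tested.

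The labels tie no replicate number to a litter or batch, but same-numbered mice of different groups fell in the same Xist set. In the 4 comparisons of 2 groups, 3 to 6 of 8 same-numbered pairs had deviations correlated above 0.1. In TgNotch3R169C against Notch3-/- mice the 8 correlations ran from 0.0509 to 0.495. With the number as a block, 97, 6, 598 and 63 genes were called in Notch3-/- against Notch3+/+, TgNotch3R169C against WT, TgNotch3R169C against Notch3-/- mice and the difference between mutant effects, against 115, 20, 682 and 65. In the block fit of TgNotch3R169C against Notch3-/- mice Igkc (4.17, adjusted p = 0.00482) and Jchain (3.01, 0.0123) were called and Ighm was not (1.66, 0.0767).

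Among pairs of members, Cd79a and Ms4a1 lost their call with RLE normalisation and with a prior count of 0.5, and Igkc with Ighg2b (adjusted permutation p = 0.0672), Jchain with Ighg2b (0.0515) and Igha with Cd79b (0.0515) lost theirs with the latter.

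Near-zero log2 differences changed sign. In Notch3-/- against Notch3+/+ mice Cd79a was 0.0011 with no filter, Jchain 0.015 with limma voom, 0.016 with the block and 0.025 on the scale of the exact test, Ms4a1 0.018 with the block and 0.034 on the exact scale, Ighm -0.19 with the red blood cell covariate and -0.032 with Xist, and Cd79b -0.081 with red blood cells. In TgNotch3R169C against WT mice Ms4a1 was -0.012 with limma voom, -0.011 on the exact scale, -0.030 with red blood cells and -0.17 with choroid plexus. In TgNotch3R169C against Notch3-/- mice Cd79a was -0.0014 with no filter and -0.011 on the exact scale.

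With 1 mouse left out, values in Notch3-/- against Notch3+/+ mice ran from -0.41 to 0.19 for Igkc, -0.17 to 0.17 for Jchain, -0.13 to 0.18 for Ighm, -0.044 to 0.034 for Cd79a and -0.14 to 0.10 for Ms4a1. In TgNotch3R169C against WT mice Ms4a1 ran from -0.21 to 0.28, and the genes called from 11 (without WT mouse 3) to 26 (without TgNotch3R169C mouse 5). In TgNotch3R169C against Notch3-/- mice Cd79a ran from -0.044 to 0.052, Cd79b from -0.013 to 0.30, Ms4a1 from -0.12 to 0.33, and the genes called from 409 (without Notch3-/- mouse 4) to 1169 (without Notch3-/- mouse 8). Between the controls Cd79b ran from -0.024 to 0.26 and Ms4a1 from -0.11 to 0.19. For the difference between mutant effects Cd79b ran from -0.11 to 0.22, Igha from -1.95 to 0.044 and Ms4a1 from -0.19 to 0.30. Genes with few reads, Mzb1 and Ighg2b above all, are limited by depth.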
